A study of Mus musculus with 4 samples.

Results

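The genes described here encode MHC molecules and their light chain, interferons, interleukins, chemokines and tumour necrosis factor (TNF) family members with their receptors, and the Jak, Stat, Irf, Socs, Toll-like and NF-kappaB proteins that carry or limit their signals. They were measured in the neocortex of mouse embryos on 4 arrays of 2 channels. Probes were taken by gene symbol, which matched 146 probes once the proteasome genes Psmb8 and Psmb9 were set aside, and 90 of these had a value on 3 or 4 of the arrays. These 90 probes, each for a different gene, are the members, of 5140 genes that have a single-symbol probe measured as often on this platform of 6856 probes. Each array held RNA of a separate null sample beside RNA of a control pool. The null samples came from null mutant embryos on the C57BL/6 background, whose cortex the labels call synaptically silent, at embryonic day 16. The control was wild-type neocortex of the same background and day, pooled from 4 biological replicates. On replicate 1 the null RNA was in the dye Cy3, and its source name gives day 14 where its title and characteristics give day 16. On replicates 2, 3 and 4 the null RNA was in Cy5.

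MHC class I molecules hold peptides at the cell surface as a heavy chain joined to the light chain beta-2-microglobulin (B2m), and neurons of the developing brain are among the cells known to make them. Interferons bind paired receptors whose Jak kinases activate Stat proteins, which with Irf factors turn on interferon-induced genes, among them those for MHC class I. Chemokines steer migrating cells, in the cortex both microglia and young neurons, while interleukins and TNF family ligands are best known from immune cells.

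Each value is the log ratio between the channels of 1 array, taken as log2. The channel that served as numerator is not known, so the sign of a value does not say whether the RNA was more or less abundant in the null. Signs below are those of the deposited table. The tests used replicates 2 to 4, which share an orientation of the dyes and hence a direction, and in which dye and genotype cannot be told apart. Because all arrays share 1 pool, that pool counts as 1 control sample, and the tests leave out the spread between controls. The labels call the null samples biological replicates without saying whether each was a single embryo. Ratios hold no levels, so the tissue could not be checked against its markers, and fewer cells of a type cannot be told apart from less RNA per cell. Between 5777 and 5873 probes had a value on each array, with medians from -0.031 to 0.0044, and the SD over probes was widest on replicate 3, at 0.63, against 0.40 to 0.48 on the others.

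No member passed the test. Of 85 members with a value on replicates 2, 3 and 4, 0 had an adjusted p under 0.05 with limma, as did 0% of all 5720 probes tested. At an unadjusted p under 0.05, limma listed 10 members, or 11.8%, against 9.67% of all probes. Of these, 8 were positive, or 9.41% of members against 5.61% of all probes, and 2 were negative, or 2.35% against 4.06%. On all 3 arrays 24 members kept a single sign, or 28.2%, against 33.5% of all probes. These shares are near the background. The median of the members' mean log ratios was 0.022, against -0.016 over all probes, and their means ran from -0.81 to 0.89. Members varied somewhat more between arrays, with a median SD of 0.33 against 0.27 over all probes. The 95% interval of the median member reached 0.44 to either side of its mean. The histogram of mean log ratios lays the members over all probes.

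**Figure D1:**
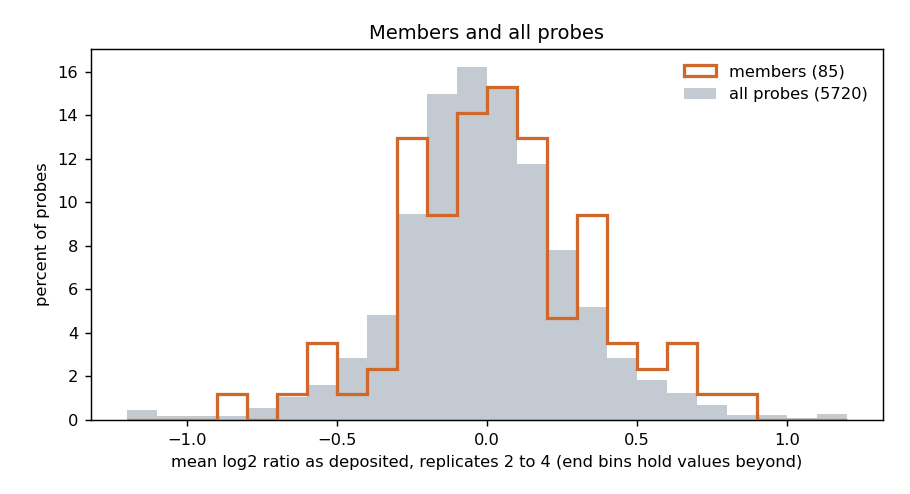
Percent of probes (vertical axis) by mean log2 ratio on replicates 2 to 4 as deposited (horizontal axis), for the 85 members (line) and all 5720 probes (filled). Both distributions centre near 0, with medians of 0.022 and -0.016.

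Many of the matched genes gave no value at all. On no array was there a value for 56 of the 146 matched probes, or 38.4%, against 14.3% of all probes. Among interleukin receptors 13 of 22 were without a value, among chemokines 11 of 25, among TNF receptors and TNF-induced proteins 9 of 18 and among interleukins 9 of 20. All 6 genes grouped by symbol as interferon-induced and all 3 with an Nfkb symbol had values. The reason for missing values is not given in the sources used, and nothing is said of these 56 genes. A further 5 members lacked a value on 1 of replicates 2 to 4 and were not tested in the fit of these arrays.

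Among the members, each from a probe with 1 symbol, only H2-Q2, a gene of the Q region, encoded an MHC class I heavy chain. Its log ratio was -0.61, 0.13 and -0.15 on replicates 2, 3 and 4, with -0.40 on replicate 1. The arrays thus stood on both sides of 0, and the mean was -0.21 ± 0.37 (SD, n = 3) with an adjusted p of 0.721 in limma. Class I heavy chain genes are close copies of each other, and the RefSeq table lists H2-K1 and H2-D1 among the synonyms of H2-Q2, so which transcripts this probe bound is uncertain. The remaining H2 symbol, H2-Ke6, lies in the MHC region but encodes a hydroxysteroid dehydrogenase and no MHC molecule. It had -0.46, -0.32 and 0.13 on replicates 2, 3 and 4, a mean of -0.22 ± 0.31. MHC class II genes and the genes of the peptide transporter and of tapasin were not analysed here.

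B2m, the light chain, had the smallest p of all members. Its log ratio was 0.60, 0.67 and 0.67 on replicates 2, 3 and 4, and 0.93 on replicate 1 as deposited. All 4 arrays were positive as deposited, and replicates 2 to 4 lay within 0.072 of each other. The mean was 0.65 ± 0.04 (SD, n = 3), a ratio of 1.56-fold in size, with a 95% interval of 0.31 to 0.99 and an adjusted p of 0.450 in limma. The heavy chain H2-Q2 and the light chain B2m thus had means of opposite sign, and the difference between these probes was not tested.

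The upstream sequences of both chains are shown, with that of Irf1, because interferon and NF-kappaB act on class I genes through short elements there. They are RefSeq windows of assembly GRCm38.p6, from 250 bases before to 50 bases after the annotated start, written in the direction of transcription. Capitals mark every match, on either strand, to the interferon-stimulated response element GAAANNGAA, the gamma-activated site TTCNNNGAA, the kappaB site GGANTTTCC and the box CCAAT. B2m lies at chr2:122147437-122147736, plus strand, H2-Q2 at chr17:35342057-35342356, plus strand, and the upstream of 2 windows of Irf1 at chr11:53769764-53770063, plus strand.
B2m: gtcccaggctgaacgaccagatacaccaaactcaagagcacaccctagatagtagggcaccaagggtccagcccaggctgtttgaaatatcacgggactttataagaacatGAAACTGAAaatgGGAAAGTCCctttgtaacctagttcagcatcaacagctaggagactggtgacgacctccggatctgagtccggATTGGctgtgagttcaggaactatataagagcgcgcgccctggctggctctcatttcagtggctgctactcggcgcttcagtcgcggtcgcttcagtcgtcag
H2-Q2: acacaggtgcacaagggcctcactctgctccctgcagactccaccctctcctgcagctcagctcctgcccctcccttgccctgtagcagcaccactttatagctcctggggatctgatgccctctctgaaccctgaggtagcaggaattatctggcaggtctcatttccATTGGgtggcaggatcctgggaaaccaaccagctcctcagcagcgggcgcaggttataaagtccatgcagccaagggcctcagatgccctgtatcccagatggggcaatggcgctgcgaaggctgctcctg
Irf1: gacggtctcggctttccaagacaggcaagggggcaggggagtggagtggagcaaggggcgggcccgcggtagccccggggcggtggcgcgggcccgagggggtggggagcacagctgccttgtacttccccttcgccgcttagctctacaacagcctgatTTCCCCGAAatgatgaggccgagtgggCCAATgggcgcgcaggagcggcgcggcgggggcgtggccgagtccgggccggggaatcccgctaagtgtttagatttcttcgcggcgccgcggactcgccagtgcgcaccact
In B2m the response element stood at -139 to -131 from the start and the kappaB site, read on the minus strand, at -126 to -118, without overlap, and a CCAAT box lay at -53 to -49 on the minus strand. H2-Q2 held a CCAAT box on the minus strand, at -81 to -77, and no match to the letters of the other motifs in this window. Irf1 held a gamma-activated site at -90 to -82 and a CCAAT box at -63 to -59. KappaB sites of other letters were not searched for, in this window or the others. Of all 32851 windows, 8.56% held the response element, 8.3% the gamma-activated site, 1.25% the kappaB site and 37.4% the CCAAT box. RefSeq windows, 90 in number, were found for 73 of the 90 members. Of these windows, 14.4% held the response element, 16.7% the gamma-activated site, 5.56% the kappaB site and 28.9% the CCAAT box. A match describes letters and is no evidence of binding. Only the letters given were searched, so the lack of a match does not show that an element is absent.

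**Figure D2:**
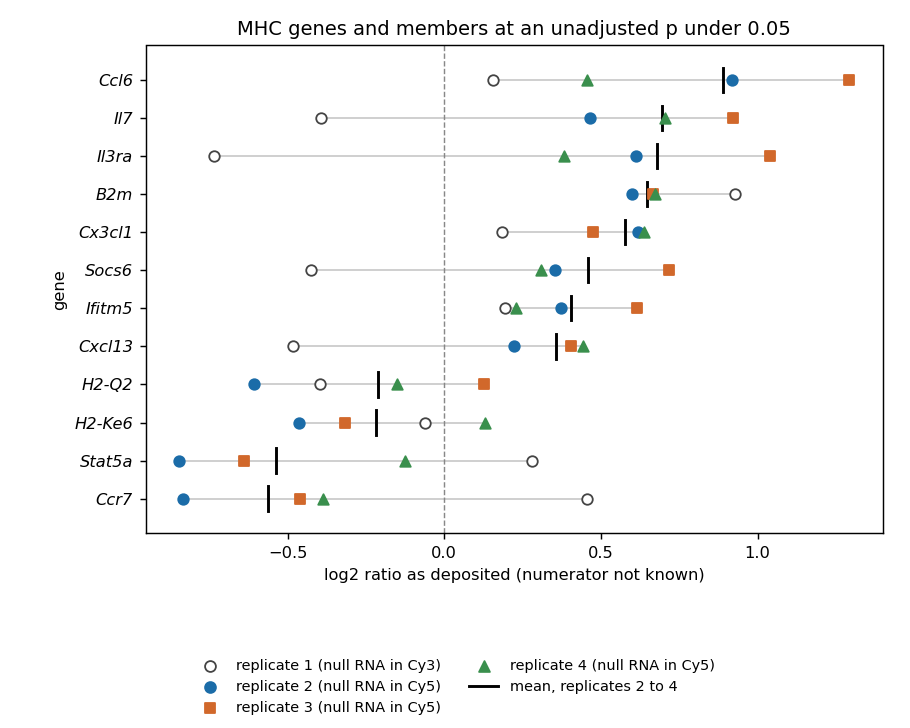
Log2 ratio as deposited (horizontal axis) on each array for H2-Q2, H2-Ke6 and the 10 members at an unadjusted p under 0.05 (rows), with open circles for replicate 1, filled symbols for replicates 2 to 4 and a bar at the mean of replicates 2 to 4. B2m is positive on all 4 arrays, from 0.60 to 0.93, while Il3ra has -0.73 on replicate 1 and 0.38 to 1.04 on the others.

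Neither interferon receptor gene tested on replicates 2 to 4 was listed at an unadjusted p under 0.05. Ifnar2, a chain of the type I interferon receptor, had 0.15, 0.18 and 0.65 on replicates 2, 3 and 4. All 3 were positive, replicate 4 being the highest, and the mean was 0.33 ± 0.28 (SD, n = 3) with an adjusted p of 0.569 in limma. Its partner chain Ifnar1 had a mean of 0.036, and the interferon gene Ifna1 had -0.25, -0.93 and 0.66. Ifngr1, a chain of the interferon-gamma receptor, had no value on replicate 2 and was not tested, with -1.65 on replicate 3 and -0.65 on replicate 4.

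Of the 6 genes grouped by symbol as interferon-induced, 5 had a positive mean and 1 was listed at an unadjusted p under 0.05. This was Ifitm5, placed here by its symbol, a member of the interferon-induced transmembrane family best known from bone-forming cells. Whether interferon induces Ifitm5 was not examined. Ifitm5 had 0.37, 0.61 and 0.23 on replicates 2, 3 and 4, all positive, with a mean of 0.40 ± 0.20 (SD, n = 3) and an adjusted p of 0.492 in limma. Ifi203, a nuclear protein of the p200 family, had 0.083, 1.25 and 0.15, so that its mean of 0.50 ± 0.65 rested on replicate 3. Ifi30, a lysosomal thiol reductase of antigen processing, had a mean of 0.17, and the interferon-inducible GTPase Ifi47 had 0.13. Ifit1 and Ifit2, which encode proteins that bind viral RNA and are among the classic interferon targets, had means of -0.11 and 0.0056.

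All 6 Irf factors, which bind the promoters of interferon-induced genes, had a negative mean on replicates 2 to 4, from -0.30 to -0.019, and none was listed at an unadjusted p under 0.05. Of all probes, 47.4% had a positive mean. Over 4 arrays the signs were no longer alike, as Irf3 had 0.025 with the sign of replicate 1 reversed, and Irf9 had 0.0097 and Irf8 0.00072 with it as deposited. Irf1, a factor induced by interferon-gamma, had -0.31, -0.35 and -0.23 on replicates 2, 3 and 4, a mean of -0.29 ± 0.06 (SD, n = 3) with an adjusted p of 0.549 in limma. Irf2, which opposes Irf1, was also negative on all 3 arrays, with a mean of -0.12. Irf5 had -0.25, 0.25 and -0.90, which straddle 0.

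Among the Jak kinases and Stat proteins, 3 of 7 means were positive. Stat5a, which relays prolactin and cytokine signals, was listed at an unadjusted p under 0.05. It had -0.85, -0.64 and -0.12 on replicates 2, 3 and 4, with 0.28 on replicate 1. Replicates 2 to 4 were all negative, replicate 4 the least so, and the mean was -0.54 ± 0.37 (SD, n = 3), 1.45-fold in size, with an adjusted p of 0.478 in limma. Stat2, the partner of Irf9 in type I interferon signalling, had -0.57, 0.16 and -0.63, a mean of -0.35 ± 0.44. Irf9 had -0.35, -0.42 and 0.31. Stat3, the chief Stat of the interleukin-6 family, had -0.14 ± 0.08, and Jak1 and Jak2 had 0.11 and 0.071.

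The Socs genes encode feedback inhibitors of cytokine receptors, and all 3 measured had positive means. Socs6 had 0.35, 0.72 and 0.31 on replicates 2, 3 and 4, against -0.43 on replicate 1 as deposited. Its mean over replicates 2 to 4 was 0.46 ± 0.22 (SD, n = 3) with an adjusted p of 0.473 in limma. Socs2, an inhibitor of growth hormone signalling, and Socs5 had means of 0.10 and 0.022.

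**Figure D3:**
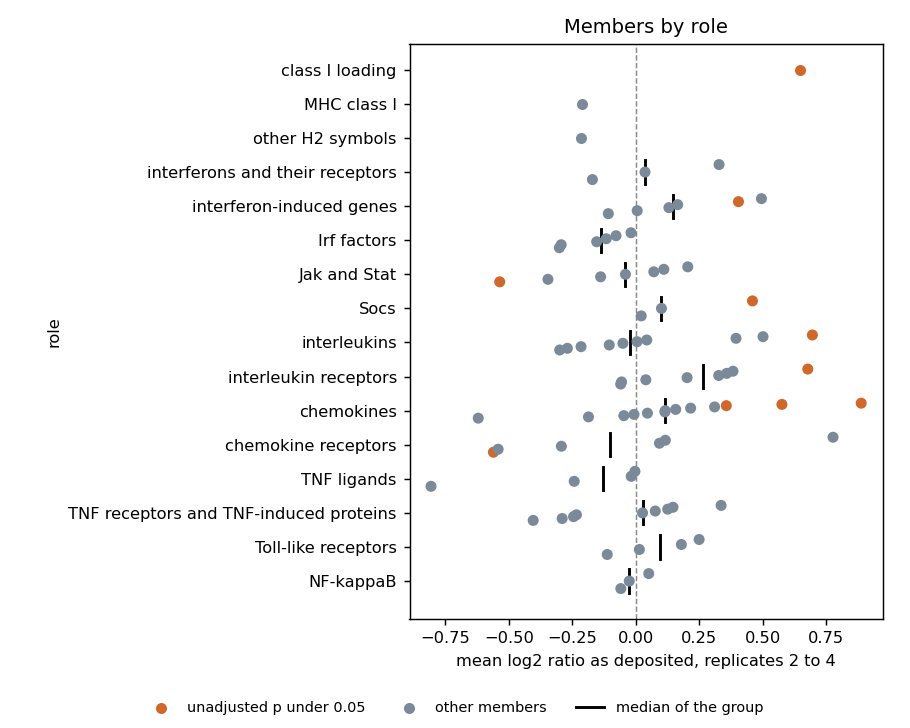
Mean log2 ratio as deposited over replicates 2 to 4 (horizontal axis) for each of the 85 tested members by role (rows), in orange where the unadjusted p was under 0.05, with a bar at the median of each group of several members. The medians run from -0.14 for Irf factors to 0.26 for interleukin receptors.

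Interleukins split evenly in sign, with 5 of 10 tested means positive and 1 listed at an unadjusted p under 0.05. Il7, a growth factor of lymphocytes, had 0.46, 0.92 and 0.70 on replicates 2, 3 and 4, and -0.39 on replicate 1. The 3 arrays were positive and clear of 0, with a mean of 0.70 ± 0.23 (SD, n = 3), 1.62-fold in size, and an adjusted p of 0.454 in limma. Il13, a type 2 cytokine, had 0.82, 0.93 and -0.24, so that replicate 4 took the other sign. Il18bp, a decoy that binds interleukin-18, had 0.49, 1.16 and -0.47, and Il1rn, the natural antagonist of the interleukin-1 receptor, had 0.20, -1.02 and 0.013. Il6, a pleiotropic inflammatory cytokine, had a mean of -0.051.

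Of 8 interleukin receptor genes tested, 6 had a positive mean, with a median of 0.26. By array, the group's median was -0.20, 0.39 and 0.35 on replicates 2, 3 and 4 and -0.64 on replicate 1, so its sign was not shared by the arrays. Il3ra, the alpha chain of the interleukin-3 receptor, had 0.61, 1.04 and 0.38 on replicates 2, 3 and 4. All 3 were positive, whereas replicate 1 had -0.73 as deposited. Its mean was 0.68 ± 0.33 (SD, n = 3) with an adjusted p of 0.454 in limma. Il2ra, the alpha chain of the interleukin-2 receptor, had -0.16, 0.27 and 0.87. Il17rb, a receptor of interleukin-25, had 0.55, -0.31 and 0.84. Il7r, the receptor of Il7, had -0.71, 1.89 and -0.025 on replicates 2, 3 and 4. The SD was 1.35 for Il7r and 0.23 for Il7. Il7 was named for a small p, which favours a low SD, and Il7r for a value beyond 1 in size, which favours a high SD. Their difference in spread is therefore no result about the pair.

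Of the 10 members listed at an unadjusted p under 0.05, 3 were chemokines, each positive on replicates 2 to 4. They were among 13 chemokines tested, of which 9 had a positive mean, and the share of all probes listed as positive was 5.61%. Ccl6, a chemokine of myeloid cells, had the mean furthest from 0 on the positive side. It had 0.92, 1.29 and 0.45 on replicates 2, 3 and 4, with 0.15 on replicate 1. All 4 arrays were positive as deposited, and the mean over replicates 2 to 4 was 0.89 ± 0.42 (SD, n = 3), 1.85-fold in size, with an adjusted p of 0.454 in limma.

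Cx3cl1, or fractalkine, is made by neurons and acts on the receptor Cx3cr1 of microglia. It had 0.62, 0.47 and 0.64 on replicates 2, 3 and 4, and 0.18 on replicate 1. The 3 arrays lay close together, at 0.58 ± 0.09 (SD, n = 3), 1.49-fold in size, with an adjusted p of 0.454 in limma. Cx3cr1 had 0.59, 2.01 and -0.26 and no value on replicate 1. On replicates 2 to 4 the receptor varied more than the ligand. Naming Cx3cl1 for a small p favours a low SD, so this difference in spread is no result about the pair. Cxcl13, an attractant of B cells, had 0.22, 0.41 and 0.44, against -0.48 on replicate 1. Its mean was 0.36 ± 0.12 with an adjusted p of 0.511 in limma.

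Other chemokines stayed nearer 0 or changed sign between arrays. Cxcl16, a membrane-bound chemokine, had 0.29, 0.085 and 0.56, a mean of 0.31 ± 0.24 (SD, n = 3). Cxcl12, which guides migrating interneurons and Cajal-Retzius cells in the cortex, had 0.24, -0.095 and -0.0078, and its receptor Cxcr4 had -0.13, 0.43 and -0.023. Neither of this pair was listed at an unadjusted p under 0.05.

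Chemokine receptors had 3 positive and 3 negative means among 6 tested. Ccr7, which brings lymphocytes and dendritic cells to lymph nodes, had -0.83, -0.46 and -0.39 on replicates 2, 3 and 4, against 0.45 on replicate 1. Replicates 2 to 4 were all negative, with a mean of -0.56 ± 0.24 (SD, n = 3), 1.48-fold in size, and an adjusted p of 0.473 in limma. Its ligand Ccl21a had 0.18, 0.36 and -0.19. Cxcr3, a receptor of interferon-induced chemokines, had 0.53, -1.21 and -0.94, which straddle 0.

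None of the TNF family members with a Tnf symbol was listed at an unadjusted p under 0.05, while the ligand Fasl, read from another list, is given further on. Among ligands all 4 means were negative, with a median of -0.13, where 47.4% of all means were positive. Tnfsf11, the bone regulator RANKL, had 0.38, -2.39 and -0.41, so that its mean of -0.81 ± 1.43 (SD, n = 3), the lowest of all members, rested on replicate 3. Tnfsf12, or TWEAK, had -0.53, -0.32 and 0.12, and Tnf itself had -0.24, 0.45 and -0.22.

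TNF receptors and TNF-induced proteins had 5 positive and 4 negative means. Tnfaip1, an adaptor of a ubiquitin ligase, had -0.28, -0.72 and -0.21, a mean of -0.40 ± 0.28 (SD, n = 3) with an adjusted p of 0.517 in limma. Tnfrsf21, the death receptor DR6 of neurons, had -0.36, -0.47 and -0.036. Both were negative on replicates 2 to 4. Tnfaip3, the NF-kappaB inhibitor A20, had 0.20, 0.74 and 0.071, and Tnfrsf1a, the main TNF receptor, had -0.38, 0.37 and -0.72.

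Toll-like receptors, which sense microbial products, had means between -0.11 and 0.25. Tlr9, a sensor of unmethylated DNA, had 0.47, -0.16 and 0.44, and Tlr5, the flagellin receptor, had -0.51, 0.21 and 0.84. The 3 members with an Nfkb symbol encode inhibitors or relatives of inhibitors of NF-kappaB. Nfkbiz and Nfkbil1 had means of 0.051 and -0.059. Nfkbie had 0.76, 0.17 and -1.01, which cancelled to -0.026 ± 0.90 (SD, n = 3).

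Ratios beyond 1 in size were found for 21 members, and most were seen on a single array. Replicate 1 held 9 such values, replicate 2 held 1, replicate 3 held 12 and replicate 4 held 3. On replicate 3 this was 13.8% of members against 7.82% of all probes, and on replicate 1 it was 10.5% against 3.97%. On replicate 4 it was 3.33% against 1.70%, while on replicate 2 members had the lower share, 1.14% against 2.73%. Il12b, the p40 subunit of interleukin-12, had the widest spread, with 0.81, -0.69, 2.77 and -2.73 on replicates 1 to 4. Ccr6, a receptor of Ccl20, had 1.53 on replicate 1, 0.96 on replicate 2 and -2.88 on replicate 4, and no value on replicate 3. On replicate 1 alone, Il6st, the shared receptor chain of the interleukin-6 family, had -2.45, the eosinophil attractant Ccl24 had -2.05, and Il5, an eosinophil growth factor, had 1.98. On replicates 2, 3 and 4, Il6st had -0.20, 0.46 and 0.35, Ccl24 had -0.28, -0.042 and 0.18, and Il5 had -0.30 and 0.53 on replicates 3 and 4. None of these came near the value on replicate 1, and signal over background is not known.

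**Figure D4:**
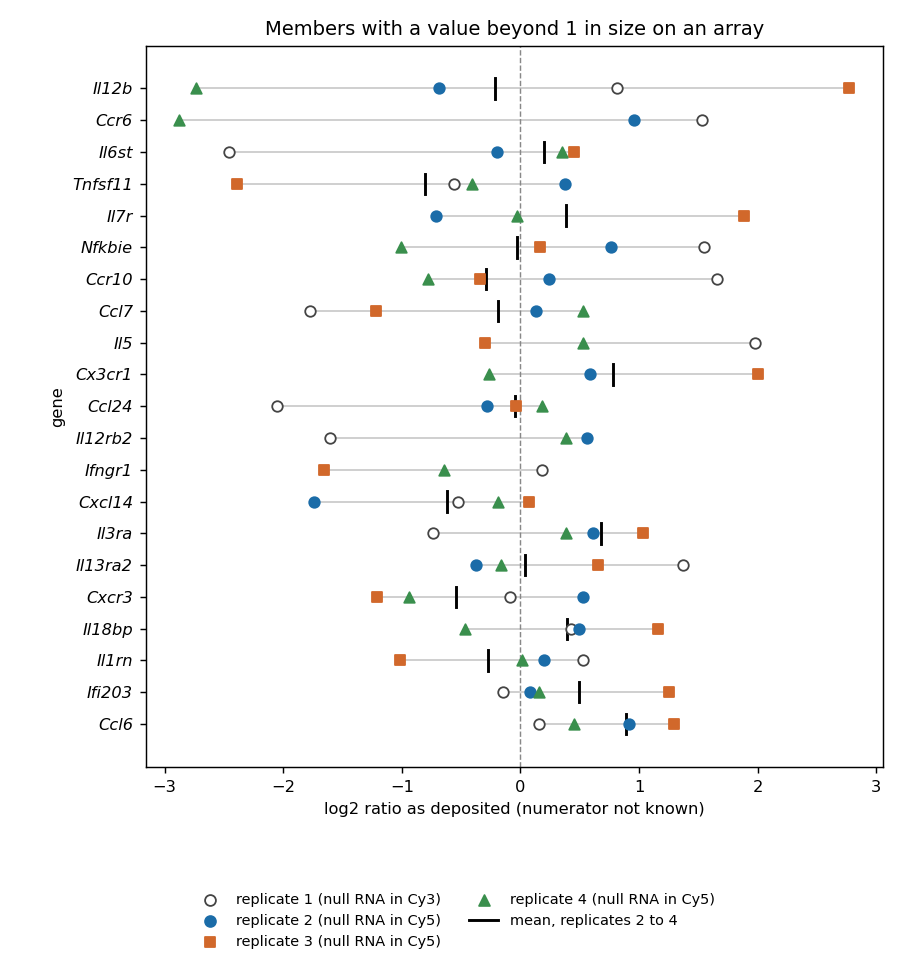
Log2 ratio as deposited (horizontal axis) on each array for the 21 members with a value beyond 1 in size on some array (rows, widest range first), with symbols by replicate and a bar at the mean of replicates 2 to 4 where all 3 had a value. Only Ccl6 has a single sign on all 4 arrays, and Il12b runs from -2.73 to 2.77.

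Other members with such a value were Ccr10, a receptor of skin-homing chemokines, with 1.65 on replicate 1, Il13ra2, a decoy receptor of interleukin-13, with 1.37, Ccl7, a monocyte attractant, with -1.78, and Il12rb2, a chain of the interleukin-12 receptor, with -1.61 on that array. Cxcl14, a chemokine of epithelia, had -1.74 on replicate 2 and 0.073 and -0.19 on replicates 3 and 4.

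The sign of replicate 1 decided which members ranked first over 4 arrays. Its sign must be reversed, or turned, if the authors divided channel 2 by channel 1 throughout, and must be kept if they had already set every array to null over control or the reverse. Of the 24 members with a single sign on replicates 2 to 4, replicate 1 had the same sign as deposited for 8 and the opposite sign for 16. Among the 10 members at an unadjusted p under 0.05, the numbers were 4 and 6. B2m, Ccl6, Cx3cl1 and Ifitm5 were the 4 with the same sign on all arrays as deposited.

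With replicate 1 turned, limma listed 9 of 81 members at an unadjusted p under 0.05, 5 of them positive, against 8.44% of all 5687 probes. Il3ra had the smallest p there, with a mean of 0.69 ± 0.27 (SD, n = 4) and an adjusted p of 0.371, followed by Il7 at 0.62 ± 0.24 and Ccr7 at -0.53 ± 0.20. With replicate 1 as deposited, limma listed 4 of 81 members, all positive, against 7.12% of all probes. B2m came first there, at 0.72 ± 0.14 (SD, n = 4) with an adjusted p of 0.617, then Ccl6 at 0.70 ± 0.50 and Cx3cl1 at 0.48 ± 0.21. B2m with replicate 1 turned had 0.25 ± 0.79 and was not listed. In both fits 0 members had an adjusted p under 0.05.

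**Figure D5:**
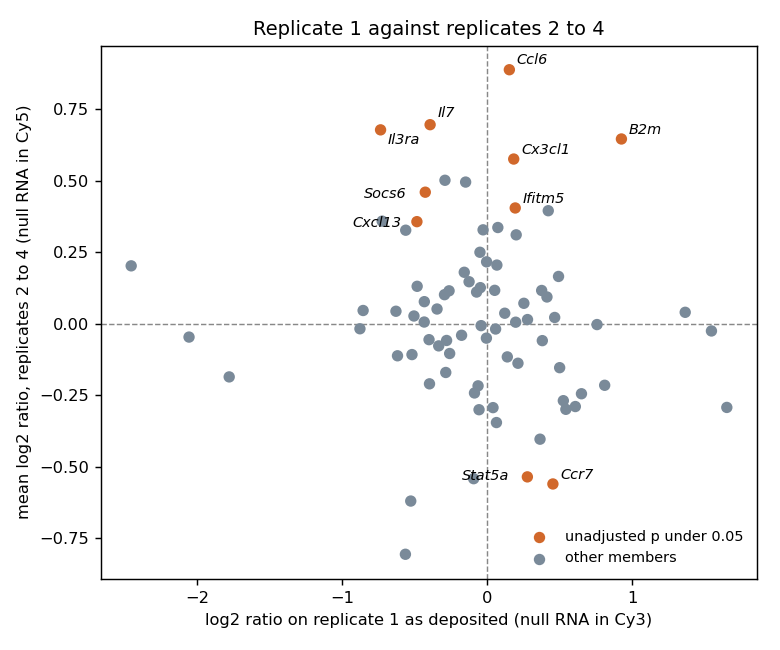
Mean log2 ratio on replicates 2 to 4 (vertical axis) against the log2 ratio on replicate 1 (horizontal axis), both as deposited, for the 81 members with a value on all 4 arrays, in orange where the unadjusted p on replicates 2 to 4 was under 0.05. Of the 10 orange members, 4 lie in the upper right quadrant and 6 in quadrants of unequal sign.

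Further genes of these pathways, with symbols outside the set above, were read from a separate list of 133 symbols, of which 56 genes were measured by 57 probes. Means were positive for 37 probes and negative for 20, with a median of 0.097, while the median on replicate 1 was -0.13 as deposited. With limma 0 had an adjusted p under 0.05. At an unadjusted p under 0.05, 9 of the 57 were listed, against 9.67% of all probes, and 8 were positive, against 5.61%. Fasl, the ligand of the death receptor Fas, had 0.64, 0.64 and 0.54 on replicates 2, 3 and 4, a mean of 0.61 ± 0.06 (SD, n = 3), against -0.59 on replicate 1. Also listed were the adaptor Traf6, with a mean of 0.54 ± 0.20 but -1.52 on replicate 1, the kinase Map3k7, or TAK1, with 0.52 ± 0.25, and Tbk1, a kinase that activates Irf3, with 0.45 ± 0.12. The adaptor Myd88 and the kinase Irak1, which act upstream of Traf6, were not listed and had means of 0.28 and -0.055. Ikbkg, the NEMO subunit of the IkappaB kinase, had -0.30, -2.08 and -0.52, a mean of -0.96 ± 0.97 that rested on replicate 3.

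Lifr, the receptor of leukaemia inhibitory factor, was listed with 0.62 ± 0.36 (SD, n = 3), as was the cytokine Clcf1 with 0.41 ± 0.27. Cntfr, a receptor chain of the same interleukin-6 family, had a mean of 0.34 ± 0.92 and was not listed, nor were Il6 and Il6st. Irgm2, an interferon-inducible GTPase, had 1.30, 0.37 and 0.47, and Pias2, of the family of Stat inhibitors, had 0.44 ± 0.12. On replicate 1 as deposited Irgm2 had -0.79, Lifr -0.43, Clcf1 -0.24 and Pias2 -0.21. Map3k7, Tbk1 and Ikbkg had -0.0030, 0.068 and -0.13 there.

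Markers of cells that carry many of these genes were read beside them. Of 12 measured microglia and macrophage markers, among them the member Cx3cr1, 9 had a positive mean, where 47.4% of all means were positive. Of the 12, 5 were listed as positive at an unadjusted p under 0.05, against 5.61% of all probes, and 0 as negative. Their median was 0.30, 0.28 and 0.31 on replicates 2, 3 and 4, and -0.085 on replicate 1. Microglia also express B2m, Ccl6 and Cx3cr1, and the part of these cells in the ratios was not tested. Only 3 of 15 lymphocyte markers were measured, with a median of 0.035 and none listed. Of 12 endothelial markers 8 had a negative mean, and 5 were listed as negative, against 4.06% of all probes, with a median of -0.28. By array their median was -0.24, -0.44 and -0.26 on replicates 2, 3 and 4, and -0.17 on replicate 1. All 7 markers of meninges and mesenchyme had a negative mean and 2 were listed, with a median of -0.23. By array their median was -0.39, -0.48 and -0.13 on replicates 2, 3 and 4, but 0.075 on replicate 1. Ptgds, a prostaglandin synthase of the meninges, had the mean furthest from 0 of the 7. It was -1.36 ± 0.63 (SD, n = 3) with an adjusted p of 0.450 in limma, while the others ran from -0.38 to -0.082. On replicate 1 as deposited Ptgds had -1.86, unlike the median of the 7 there. No marker of these lists had an adjusted p under 0.05.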

How the data were processed

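Total RNA was hybridised on 2-colour arrays. The deposited value table of the authors holds 1 log ratio per probe and array, taken as log2. Values centre near 0, as for log ratios of any base, and reach sizes too large for log10 ratios. A natural log was not excluded, so sizes given as fold rest on the choice of log2. Neither the log base nor the background correction, normalization or numerator is given in the sources used here. No scanner intensities entered, and 0 further columns were left unused. The number of arrays limits the precision. Samples were grouped by source name, and the mutated gene is not reported here.

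Symbols came from the platform annotation, with 1 symbol on 6269 probes, several on 6 and no symbol on 581. Of the 146 matched probes, 145 had an Entrez ID in the RefSeq gene table of GRCm38.p6, which changed 0 symbols. Mean log ratios were tested against 0, two-sided, with limma 3.58.1 (R 4.3.3; lmFit, eBayes) wherever each array of the fit had a value, and adjusted by Benjamini-Hochberg over all of them at 0.05. Steps were tested on simulated data. Alternatives were the sign of replicate 1, centring, scale, missing values, averaging by symbol, a robust prior, array weights, leaving out a replicate and a threshold of 0.1.

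Members and lists were chosen with earlier results of these data known. Genes were named if they were MHC or loading genes, had an unadjusted p under 0.05, were among the 2 smallest p of their role or the 3 smallest p of a 4-array fit, or had a value beyond 1 in size. Ifnar1, Ifi30, Ifi47, Ifit1, Ifit2, Irf2, Irf9, Stat3, Jak1, Jak2, Socs5, Il6, Il17rb, Cxcl12, Cxcl16, Cxcr4, Ccl21a, Tnf, Tnfaip3 and Tnfrsf1a were added for their role, after values were seen, and the motifs and windows were chosen likewise.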

Additional observations from a re-analysis of the deposited data

Results flagged for a closer look

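In 40 named members with a value on every array, 1 array was compared with the other 3, once with replicate 1 as deposited and once with it turned. Chance marks about 1 in 20 groups of unselected values. That rate does not apply here, because many of these members were named for large or like values on the same arrays and both versions share 3 arrays. Of 80 groups, 3 were marked, all with replicate 1 turned. B2m on replicate 1, at -0.93 when turned, stood far below the 0.60 to 0.67 of the other arrays. Ccr7 on replicate 2, at -0.83, stood apart from the other 3, which then lay between -0.46 and -0.39. Ifi203 on replicate 3, at 1.25, stood above the other 3, which lay between 0.083 and 0.15.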

How the results depend on the processing

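The number of members at an adjusted p under 0.05 in limma stayed 0 under every alternative, including a threshold of 0.1, while the number of probes past it was 0 in the leading fit, 1 at that threshold, 1 with a robust prior, 2 on 4 arrays with replicate 1 as deposited and 3 with array weights. At an unadjusted p under 0.05 there were 10 members in the leading fit, 8 positive and 2 negative. With replicate 1 turned the split was 5 positive and 4 negative, and with it as deposited 4 positive and 0 negative, so that 4 of the 10 kept their place. Array weights listed 20 of 85 members, 8 of them negative, and 1067 of 5720 probes, against 553 probes in the leading fit. The weights were 2.53 for replicate 2, 0.48 for replicate 3 and 0.83 for replicate 4, so replicate 2 counted most. Leaving out a replicate gave 7 members and 236 probes without replicate 2, 12 and 621 without replicate 4, and 16 and 550 without replicate 3. Of these members 4 to 9 were positive and 3 to 7 negative, and 4 to 8 of the 10 were listed again. The numbers tested in the fits without a replicate are not given here, so shares were not compared. H2-Q2 had -0.38 to -0.012 in those fits. The fits without a replicate had fewer arrays from which to estimate the spread. Whether that or anything else caused these shifts was not tested.

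None of the 10 changed the sign of its mean under any of 11 alternatives. All 10 had been listed on replicates 2 to 4, each with a single sign there. Leaving out or weighting those arrays therefore could not reverse the sign. H2-Q2 was counted apart and stayed negative under each alternative. Of the 41 other named members with a mean, 7 changed sign with array weights and 7 without replicate 3. Without replicate 4 the sign changed for 5, without replicate 2 for 2 and on a common scale for 1. Of the 39 among these measured on 4 arrays, 5 did so with replicate 1 as deposited and 4 with it turned. Ccl6 was listed under all 11, B2m, Il3ra and Il7 under 10, and Cxcl13 under 5. Most of these alternatives reuse the arrays by which the 10 were chosen. Adjusted p for B2m ran from 0.130 to 0.970. No paired analysis was possible because the series has a single group set against 1 pool. Signal over background is unknown, and a compression of ratios would pass unseen.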
